A study of Mus musculus with 16 samples.

Results

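Lysosomes are the acidic compartments in which a cell breaks down material that it has taken up or recycled. Soluble hydrolases each cut a particular bond in glycolipids, sugar chains, proteins or esters, small cofactor proteins present lipids to them, and heavily glycosylated membrane proteins line the compartment and carry its products out. Microglia, the resident macrophages of the brain, depend on lysosomes to digest debris and synaptic material, and inherited loss of many of these genes causes lysosomal storage disease of the brain. The members described here are 34 genes for such hydrolases, cofactors and membrane proteins, given as a list of symbols that leaves out the cathepsins and Glb1. All 34 were found among the 53700 genes of the count files, and all 34 passed the filter on low counts that left 17090 genes for testing.

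Bulk RNA was sequenced from microglia of whole brains in 4 groups of 4 libraries each: Ercc1 KO at 12 weeks, WT at 12 weeks, Ercc1 KO at 6 weeks and WT at 6 weeks. Ercc1 is part of an endonuclease used in DNA excision and crosslink repair, and the labels give the KO only as a genotype of the mouse, with no allele, promoter or Cre named. All mice shared a mixed C57Bl6J and FVB background, and all cells were sorted as living, CD11b-high, CD45-intermediate and free of Ly6c. The 12-week groups each held 3 males and 1 female, and the 6-week groups each held 2 males and 2 females. The labels do not state that each library came from its own animal, so p values measure the spread between these libraries.

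Total counts per library ranged over 7882182–9653663 in KO at 12 weeks, 9045823–22142972 in WT at 12 weeks, 9885121–17499408 in KO at 6 weeks and 8250645–13278797 in WT at 6 weeks. As a check of the labels, Ercc1 stood at 4.28 ± 2.80 CPM in KO and 20.7 ± 19.2 CPM in WT at 12 weeks, and at 3.63 ± 0.803 CPM in KO and 18.8 ± 7.91 CPM in WT at 6 weeks (CPM, the count scaled to a TMM-adjusted library size; SD, n = 4), with no KO library above a WT library of its age. The 12-week WT library with the double number 5_6 is labelled male and held both Xist (349.6 CPM) and Y-linked transcripts (112.6 CPM in sum), and results that change without it are named. All 14 microglia markers were detected in every group. The summed level of these markers was lower in KO, at 57597–60407 CPM against 70715–77903 CPM in WT at 12 weeks and at 65433–76622 CPM against 77293–83798 CPM in WT at 6 weeks. P2ry12 had the largest drop in CPM at 12 weeks, at 9622 ± 763 CPM in KO and 16862 ± 1479 CPM in WT. C1qa, Aif1 and Trem2 had higher means in KO at 12 weeks, and the other markers of the list had lower means. By edgeR (adjusted p under 0.05), P2ry12, Cx3cr1 and Gpr34 were lower at 12 weeks and P2ry12 alone at 6 weeks, and 0 were higher. The median log2 change of the 14 markers was -0.25 at 12 weeks and -0.12 at 6 weeks. Mitochondrially encoded transcripts took 0.567% ± 0.0855 of counts in KO and 0.326% ± 0.0448 in WT at 12 weeks, and 0.350% ± 0.0367 in KO and 0.221% ± 0.0305 in WT at 6 weeks (SD, n = 4). The shifts in the microglia marker sum and in mitochondrial transcripts both run with genotype, as the results below do, and their part in the results was not tested. In bulk samples, fewer cells of a type and less RNA per cell cannot be told apart.

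At 12 weeks, 7 of the 34 genes were higher in KO than in WT microglia and 0 were lower (edgeR's quasi-likelihood test, adjusted p under 0.05 over all genes tested). Below, called refers to this edgeR test with group and sex terms over all 16 libraries unless another tool or setting is named. The genes were Psap, Grn, Hexa, Gusb, Npc2, Man2b1 and Cd68, with fold changes between 1.37 and 1.74. At 6 weeks, 4 of these genes passed, Psap, Grn, Npc2 and Gusb, and again 0 were lower. Over all genes tested, 2.03% were called higher and 0.954% lower at 12 weeks, and 0.796% higher and 0.0761% lower at 6 weeks. Among the 1693 genes with a mean of at least 100 CPM, where 21 of the members and all of the called members lie, the shares were 7.09% and 3.9%. The members' median log2 change was 0.27 at 12 weeks, beside -0.03 for all genes tested, and 0.25 at 6 weeks, beside -0.02. By role, the median log2 change at 12 weeks was 0.66 for the cofactors and for the glycosaminoglycan hydrolases, 0.41 for the glycoprotein and glycogen glycosidases, 0.25 for the sphingolipid hydrolases, 0.20 for the proteases, thioesterase and lipase, and 0.05 for the membrane proteins. At 6 weeks it was 0.54 for the cofactors, 0.25 for the glycosaminoglycan hydrolases, 0.38 for the glycoprotein and glycogen glycosidases, 0.24 for the sphingolipid hydrolases, 0.17 for the proteases, thioesterase and lipase, and 0.16 for the membrane proteins. At each age 30 of the 34 genes had a positive log2 change, where 48% of all genes tested did at 12 weeks and 48.2% at 6 weeks. Before adjustment, 15 members had p under 0.05 and were higher in KO at 12 weeks and 14 at 6 weeks, against 7.66% and 4.65% of all genes, and 0 members had such a p and were lower at either age, where 6.7% and 2.67% of all genes did. Every KO library lay above every WT library of its age for 8 members at 12 weeks and 12 at 6 weeks, where this held for 5.13% and 4.92% of all genes tested and for 10.3% and 11.5% of those with at least 100 CPM. At 6 weeks Hexa, Man2b1 and Cd68 were called by DESeq2 and by limma voom. With edgeR, Hexa was called there without the sex term. Man2b1 was called there without the low-count filter, with only the 6-week libraries or without 12-week WT libraries 3 and 8.

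**Figure D1:**
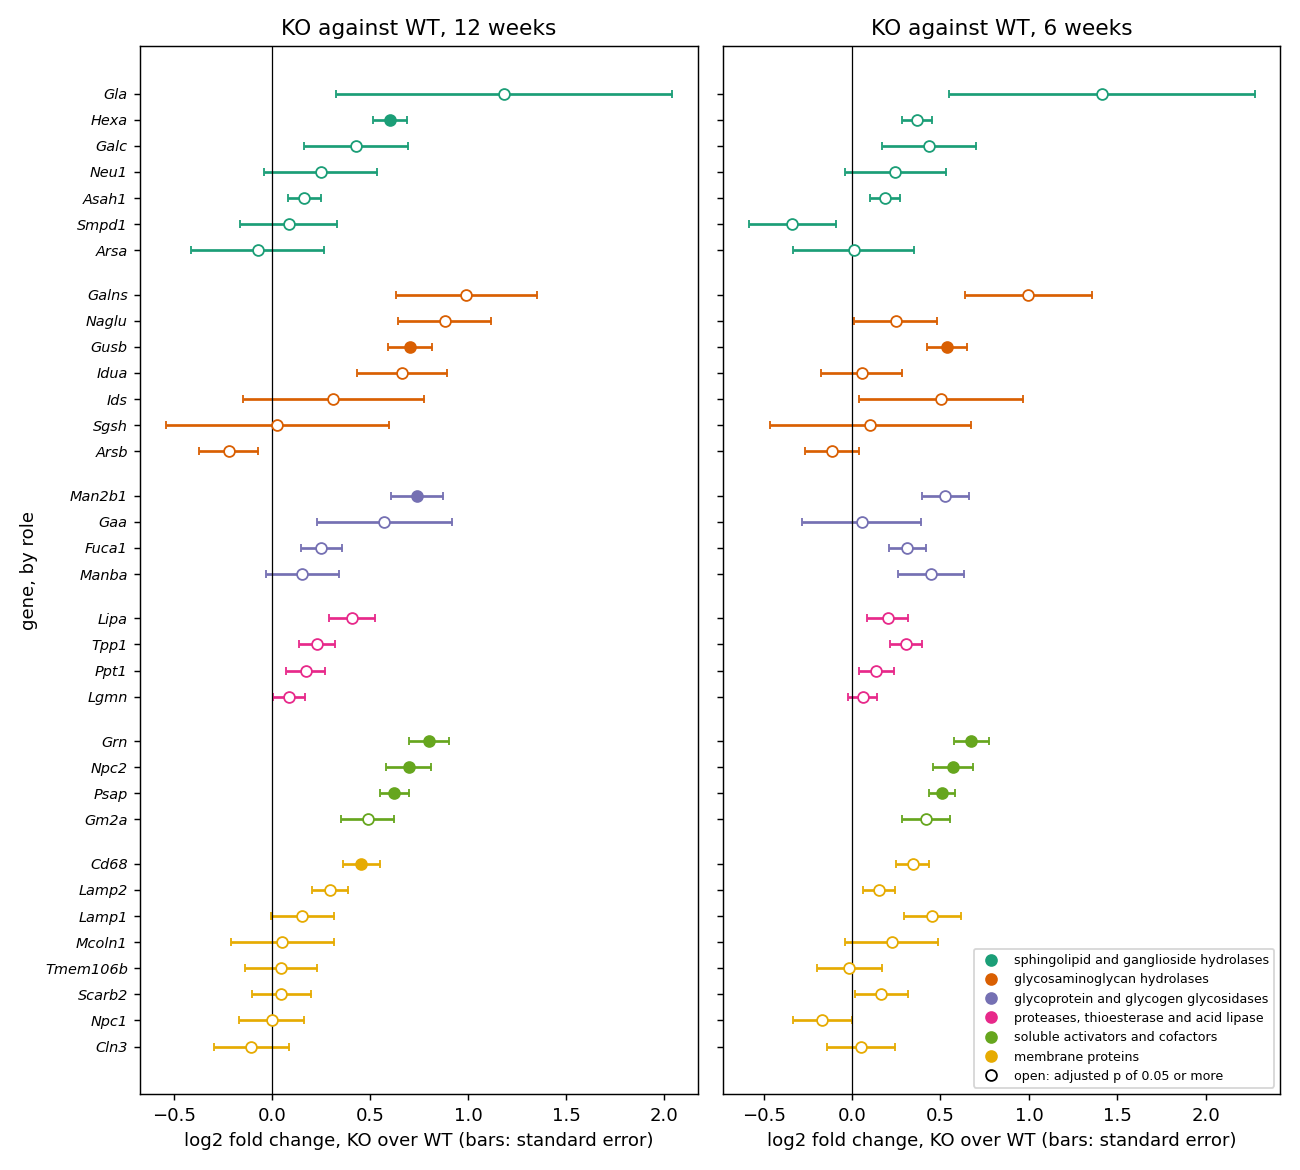
Log2 fold change of KO over WT for the 34 lysosomal genes, 12 weeks left and 6 weeks right, ordered by role. Points are the edgeR estimates, bars the standard error, and filled points have an adjusted p under 0.05. The 7 filled points at 12 weeks and the 4 at 6 weeks all lie above 0, and the cofactors Psap, Grn and Npc2 are filled at both ages.

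**Figure D2:**
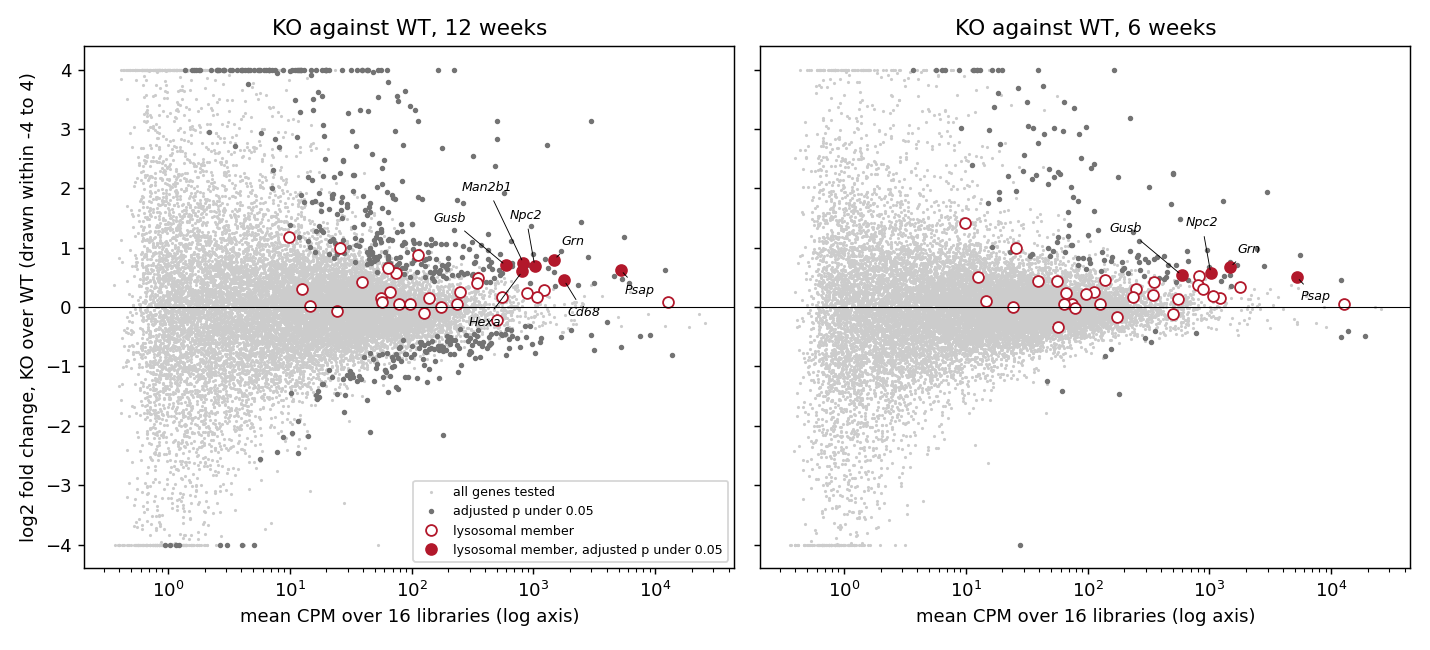
Log2 fold change of KO over WT (vertical axis, values beyond it drawn at its edge) against the mean CPM over 16 libraries (horizontal, log axis) for every gene tested, 12 weeks left and 6 weeks right. Grey dots are other genes, darker where the adjusted p is under 0.05, and red circles are the 34 lysosomal genes, filled where it is under 0.05. The called members have a mean of at least 100 CPM at both ages.

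Many lysosomal genes carry the palindrome CACGTG near their start, the core of the CLEAR element through which the transcription factor TFEB and its relatives act. The RefSeq promoter table (GRCm38.p6, an older build than the GRCm39 named for the counts) held 31 of the 34 members, each with the 250 bases before and 50 after the start of its farthest upstream transcript. Of these 31 promoters 7 held CACGTG, which reads the same on both strands, beside 7.24% of all 27025 promoters and 10% of those of genes tested here. The windows around it are shown with CACGTG in capitals, each read 5′ to 3′ on the strand of its gene, because it is the known lysosomal element. The edgeR test called none of these 7 genes in KO against WT. DESeq2 called Naglu at 12 weeks, and so did the edgeR settings named for it below.
Lamp1, chr8:13159088-13159163, plus strand: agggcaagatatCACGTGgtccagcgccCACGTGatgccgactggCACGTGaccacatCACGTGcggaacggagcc
Gla, chrX:134601182-134601244, minus strand: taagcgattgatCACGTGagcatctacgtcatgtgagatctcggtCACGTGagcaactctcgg
Mcoln1, chr8:3500436-3500491, plus strand: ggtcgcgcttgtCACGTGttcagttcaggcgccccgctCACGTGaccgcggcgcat
Arsa, chr15:89477423-89477452, minus strand: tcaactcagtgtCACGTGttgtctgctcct
Gaa, chr11:119267811-119267840, plus strand: tttctgtgcgatCACGTGtttgactctgac
Naglu, chr11:101070009-101070038, plus strand: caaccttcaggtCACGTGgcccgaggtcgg
Sgsh, chr11:119355522-119355551, minus strand: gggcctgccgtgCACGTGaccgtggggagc
Lamp1 held 4 copies, and Gla and Mcoln1 held 2 each. When every start listed for a gene was searched, 9 members held the palindrome, beside 8.09% of all genes. None of the 7 called genes held it, and nothing is read from so few genes at this background. A related form with a changed base, TCACATG, stood in 6 members on either strand, of which Grn was the only called gene, beside 3.98% of all promoters. The letters GAGGAAG, a form of the site read by the myeloid factor PU.1, stood in 6 members on either strand, of which Gusb and Man2b1 were called, beside 13.5% of all promoters. None of the 3 motifs contains another, and a match is a description of the sequence only. The 100 bases just before the start of Psap and Grn, the 2 genes called at both ages with every library left out in turn, are given next, and none of the 3 motifs lies in these stretches.
Psap, chr10:60277528-60277627, plus strand: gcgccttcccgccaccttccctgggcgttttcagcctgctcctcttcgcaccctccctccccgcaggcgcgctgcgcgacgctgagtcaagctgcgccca
Grn, chr11:102430407-102430506, plus strand: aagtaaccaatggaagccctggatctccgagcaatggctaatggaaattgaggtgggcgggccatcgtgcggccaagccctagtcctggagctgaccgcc

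Of the 4 soluble cofactors, 3 were called higher in KO at both ages, the largest number of any role. The glycosaminoglycan hydrolases also had a median log2 change of 0.66 at 12 weeks, with 1 gene called. The 4 cofactors averaged between 352 and 5209 CPM over the 16 libraries, and the part of level in the number of calls was not tested. Their summed level was 9467 ± 720 CPM in KO and 5999 ± 244 CPM in WT at 12 weeks, and 9972 ± 785 CPM in KO and 6846 ± 266 CPM in WT at 6 weeks (SD, n = 4), with no overlap between the genotypes. Psap encodes prosaposin, which is cut into the saposins that present sphingolipids to their hydrolases. At 12 weeks Psap stood at 6019, 6562, 5671 and 5501 CPM in the KO libraries, against 3598, 4133, 3787 and 3900 CPM in the WT libraries. The 6-week values were 6598, 6273, 7196 and 5874 CPM in the KO libraries, against 4346, 4485, 4819 and 4592 CPM in the WT libraries. Every KO library lay above every WT library of either age. The log2 change was 0.62 ± 0.07 at 12 weeks (SE, edgeR adjusted p = 0.000151) and 0.51 ± 0.07 at 6 weeks (edgeR adjusted p = 0.00179).

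Grn encodes progranulin, a secreted and lysosomal protein that is cut into granulins and whose loss causes lipofuscin storage in the brain. Grn counts at 12 weeks were 1666, 1900, 1749 and 1561 CPM in the KO libraries, against 898, 1014, 882 and 1152 CPM in the WT libraries. Those at 6 weeks were 2034, 2085, 2155 and 1661 CPM in the KO libraries, against 1182, 1243, 1237 and 1308 CPM in the WT libraries. It showed the largest log2 change of the called members at both ages, 0.80 ± 0.10 at 12 weeks (edgeR adjusted p = 0.000229) and 0.67 ± 0.10 at 6 weeks (edgeR adjusted p = 0.00215), and the genotypes did not overlap. In the mouse annotation 68 exon bases of Grn are shared with Fam171a2 on the opposite strand, which had at most 1.33 CPM in any library.

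Npc2 encodes the soluble protein that binds cholesterol in the lysosome lumen and hands it to the membrane protein Npc1. Npc2 stood at 1372, 1577, 1132 and 1517 CPM in the KO libraries at 12 weeks, against 1083, 800.0, 773 and 810.1 CPM in the WT libraries. WT library 3 lay apart from the other 3 WT libraries and close to the lowest KO library. The 6-week values were 1158, 1056, 1079 and 1105 CPM in the KO libraries, against 725, 755, 790 and 696 CPM in the WT libraries. The log2 change was 0.70 ± 0.11 at 12 weeks (edgeR adjusted p = 0.00264) and 0.57 ± 0.11 at 6 weeks (edgeR adjusted p = 0.0266). The 12-week call was lost when only the libraries of that age were fitted (edgeR adjusted p = 0.0613). The call at 6 weeks was lost whichever of the 8 libraries of that age was left out (edgeR adjusted p between 0.0623 and 0.131), while the log2 change stayed between 0.53 and 0.59. Gm2a, the activator that lifts GM2 ganglioside out of the membrane for Hexa, averaged 409.8 ± 44.1 CPM in KO and 292 ± 53.1 CPM in WT at 12 weeks, and 404 ± 46.6 CPM in KO and 302 ± 27.2 CPM in WT at 6 weeks, and did not pass at either age (edgeR adjusted p = 0.0665 and 0.291), although DESeq2 called it at 12 weeks. With edgeR, Gm2a was called at 12 weeks without the low-count filter, without WT library 4 or without KO library 3.

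**Figure D3:**
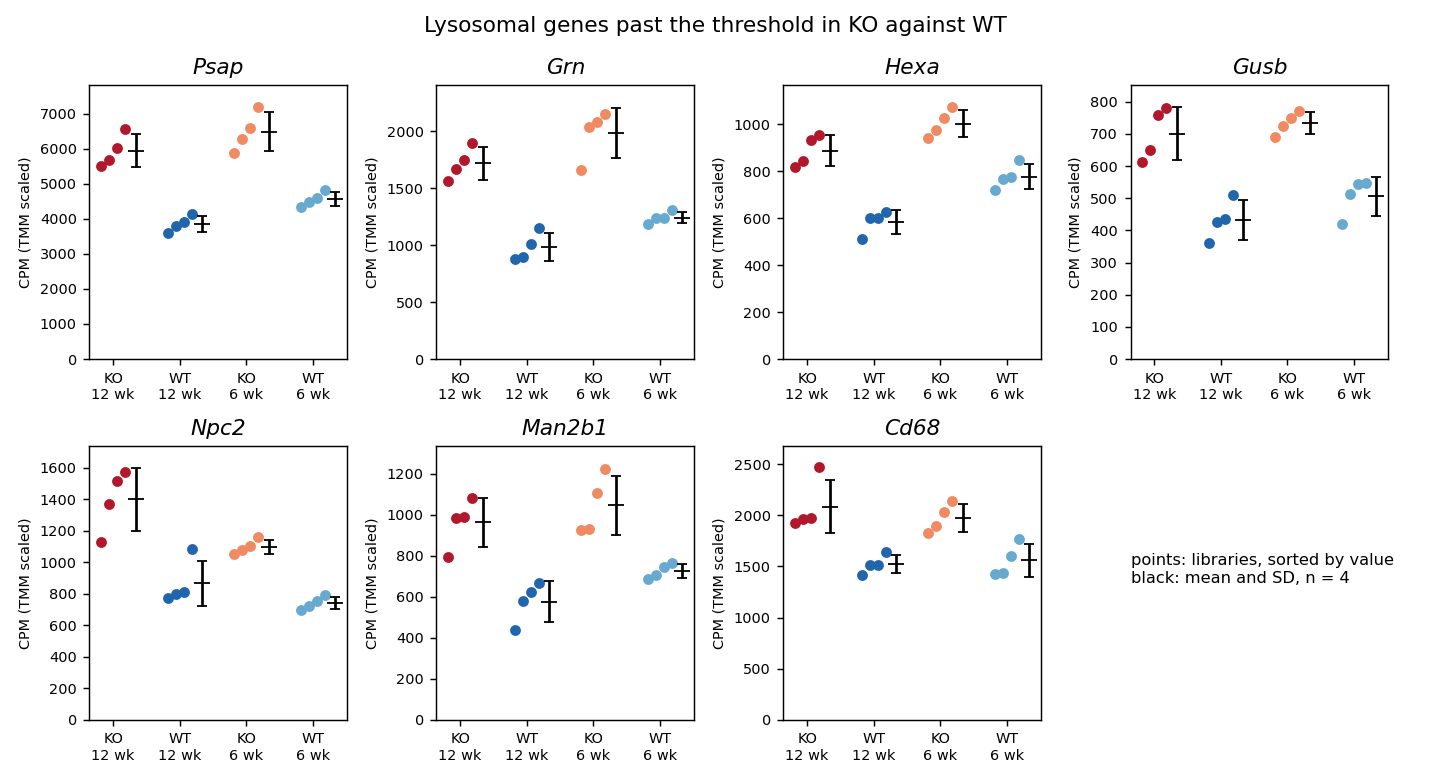
CPM on TMM-scaled library sizes of the 7 called lysosomal genes, with KO left of WT at 12 weeks and then at 6 weeks. Each point is a library, sorted by value within its group, and the black marks are the mean and SD (n = 4). In each panel all KO points lie above all WT points of the same age, and for Npc2 the highest WT point at 12 weeks (1083 CPM) lies just under the lowest KO point (1132 CPM).

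Of the 7 hydrolases of sphingolipids and gangliosides, Hexa was called at 12 weeks and none at 6 weeks. Hexa encodes the alpha subunit of the hexosaminidase that removes the terminal sugar of GM2 ganglioside. It stood at 818, 933, 842 and 952 CPM in the KO libraries at 12 weeks, against 599.9, 628, 509 and 599.0 CPM in the WT libraries. The 6-week values were 1073, 941, 1025 and 974 CPM in the KO libraries, against 719, 766, 777 and 847 CPM in the WT libraries. The genotypes did not overlap at either age. The log2 change was 0.60 ± 0.09 at 12 weeks (edgeR adjusted p = 0.00068) and 0.37 ± 0.08 at 6 weeks (edgeR adjusted p = 0.059). A stretch of 255 exon bases is shared with Tmem202 on the opposite strand, and counts for Tmem202 ran in the same direction, at 88.6 ± 13.4 CPM in KO and 53.1 ± 5.99 CPM in WT at 12 weeks and 98.2 ± 4.38 CPM in KO and 75.3 ± 4.47 CPM in WT at 6 weeks. Reads within the shared stretch cannot be told apart without the strand setting, which is not given in the sources used here. The same limit holds for each of the 11 members that share exon bases with a gene on the opposite strand. Of these, Arsb shares the most, 2411 of its 6037 exon bases, with Gm47210 and Gm26527.

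The most abundant of the remaining sphingolipid hydrolases was Asah1, acid ceramidase, at 1128 ± 52.1 CPM in KO and 1008 ± 71.6 CPM in WT at 12 weeks. Neu1, Galc, Smpd1, Arsa and Gla, which encode a sialidase, galactosylceramidase, acid sphingomyelinase, arylsulfatase A and alpha-galactosidase A, had group means between 4.49 and 72.8 CPM. Gla had the largest log2 change of the 34 genes at both ages, 1.18 ± 0.86 at 12 weeks and 1.41 ± 0.87 at 6 weeks, at levels of 16.2 ± 5.59 CPM in KO and 7.27 ± 6.04 CPM in WT at 12 weeks, and it was not called.

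Gusb, beta-glucuronidase, was the called gene of the 7 glycosaminoglycan hydrolases. At 12 weeks Gusb stood at 612, 758, 649.5 and 782 CPM in the KO libraries, against 509, 426, 435 and 359.9 CPM in the WT libraries. The 6-week values were 725, 751, 770.2 and 689 CPM in the KO libraries, against 419, 513, 544 and 547 CPM in the WT libraries. All KO libraries lay above all WT libraries of their age. The log2 change was 0.70 ± 0.11 at 12 weeks (edgeR adjusted p = 0.00185) and 0.54 ± 0.11 at 6 weeks (edgeR adjusted p = 0.0307). At 6 weeks the call was kept only when WT library 4 was left out (edgeR adjusted p = 0.0423) and lost without any other of the 8 libraries (edgeR adjusted p up to 0.158). Naglu, which removes a sugar from heparan sulfate, had a larger log2 change at 12 weeks, 0.88 ± 0.24, at 123 ± 26.7 CPM in KO and 66.2 ± 22.0 CPM in WT, and missed the threshold (edgeR adjusted p = 0.0602), although DESeq2 called it. With edgeR, Naglu was called at 12 weeks without the low-count filter, without the sex term, without WT library 4 or without KO library 4. Idua, which acts on heparan and dermatan sulfate, averaged 62.6 ± 11.8 CPM in KO and 40.2 ± 14.8 CPM in WT at 12 weeks (edgeR adjusted p = 0.165). Galns had log2 changes of 0.99 ± 0.36 at 12 weeks and 1.00 ± 0.36 at 6 weeks, with group means between 16.04 and 37.0 CPM, and was not called. Arsb, which acts on dermatan sulfate, had a negative log2 change at both ages (-0.22 ± 0.15 at 12 weeks and -0.11 ± 0.15 at 6 weeks), and Sgsh and Ids had group means between 8.38 and 18.2 CPM.

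Man2b1, the lysosomal alpha-mannosidase that trims the sugar chains of glycoproteins, was the called gene of the 4 glycoprotein and glycogen glycosidases. At 12 weeks Man2b1 stood at 1082, 985, 992 and 793 CPM in the KO libraries, against 436, 625, 579 and 666 CPM in the WT libraries. The 6-week values were 929, 1106, 1223 and 929 CPM in the KO libraries, against 707, 686, 747 and 765 CPM in the WT libraries. The genotypes did not overlap. The log2 change was 0.74 ± 0.13 at 12 weeks (edgeR adjusted p = 0.00485) and 0.53 ± 0.13 at 6 weeks (edgeR adjusted p = 0.0982). Fuca1, the alpha-fucosidase, averaged 279.8 ± 17.3 CPM in KO and 236 ± 31.6 CPM in WT at 12 weeks, and 272 ± 19.9 CPM in KO and 219 ± 18.6 CPM in WT at 6 weeks. Manba, the beta-mannosidase, and Gaa, which breaks down glycogen, had group means between 49.3 and 88.8 CPM, and none of these 3 genes was called.

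Lgmn encodes legumain, a protease that cuts after asparagine, and it was the most abundant of the 34 genes. It averaged 12697 ± 798 CPM in KO and 11970.2 ± 989 CPM in WT at 12 weeks, and 13547 ± 904 CPM in KO and 13021 ± 1670 CPM in WT at 6 weeks, and its log2 change was 0.09 ± 0.08 at 12 weeks and 0.06 ± 0.08 at 6 weeks (edgeR adjusted p = 0.745 and 1). Its share of the counts of all 34 genes was 38.2% in KO and 44.8% in WT at 12 weeks. Tpp1, a peptidase that takes off 3 residues at a time, averaged 834 ± 23.5 CPM in KO and 712 ± 89.6 CPM in WT at 12 weeks, and 1103 ± 88.6 CPM in KO and 893 ± 70.0 CPM in WT at 6 weeks. Lipa, the acid lipase that frees cholesterol from its esters, averaged 393 ± 82.5 CPM in KO and 294 ± 43.8 CPM in WT at 12 weeks (log2 change 0.41 ± 0.12, edgeR adjusted p = 0.0796), and was called there without WT library 5_6. Ppt1, which removes fatty acids from proteins, averaged 597 ± 31.1 CPM in KO and 531 ± 66.6 CPM in WT at 12 weeks. By edgeR none of the 4 genes of this role was called at either age over all libraries. DESeq2 called Lipa at 12 weeks. Without WT library 4, edgeR called Tpp1 at 12 weeks.

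Of the 8 membrane proteins, edgeR called Cd68 at 12 weeks and none at 6 weeks. DESeq2 also called Lamp2 at 12 weeks. At 6 weeks DESeq2 and limma voom called Cd68. Cd68 encodes a glycoprotein of the lysosome membrane that is used as a marker of phagocytic macrophages. Cd68 stood at 1923, 1973, 1965 and 2475 CPM in the KO libraries at 12 weeks, against 1514, 1517, 1638 and 1421 CPM in the WT libraries. The 6-week values were 2141, 1895, 2033 and 1831 CPM in the KO libraries, against 1436, 1599, 1772 and 1429 CPM in the WT libraries. No WT library reached the lowest KO library of its age, and KO library 4 at 12 weeks lay apart from the other 3. The log2 change was 0.45 ± 0.09 at 12 weeks (edgeR adjusted p = 0.0136) and 0.34 ± 0.09 at 6 weeks (edgeR adjusted p = 0.152). The call was lost without WT libraries 3 and 8 (edgeR adjusted p = 0.138) and when only the 12-week libraries were fitted (edgeR adjusted p = 0.0781). Lamp2, which lines the lysosome and takes part in its fusion with other vesicles, averaged 1317 ± 54.6 CPM in KO and 1075 ± 135 CPM in WT at 12 weeks (log2 change 0.29 ± 0.09, edgeR adjusted p = 0.111), and its genotypes did not overlap at that age. Lamp1, its close relative, averaged 164 ± 9.40 CPM in KO and 147 ± 31.7 CPM in WT at 12 weeks, and 143 ± 21.9 CPM in KO and 104 ± 13.2 CPM in WT at 6 weeks. The cholesterol transporter Npc1, the receptor Scarb2, the calcium channel Mcoln1, Cln3 and Tmem106b had log2 changes between -0.11 and 0.05 at 12 weeks and between -0.17 and 0.22 at 6 weeks. Npc1 averaged 157.6 ± 21.2 CPM in KO and 157.7 ± 36.0 CPM in WT at 12 weeks, beside the higher level of its partner Npc2 in KO.

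**Figure D4:**
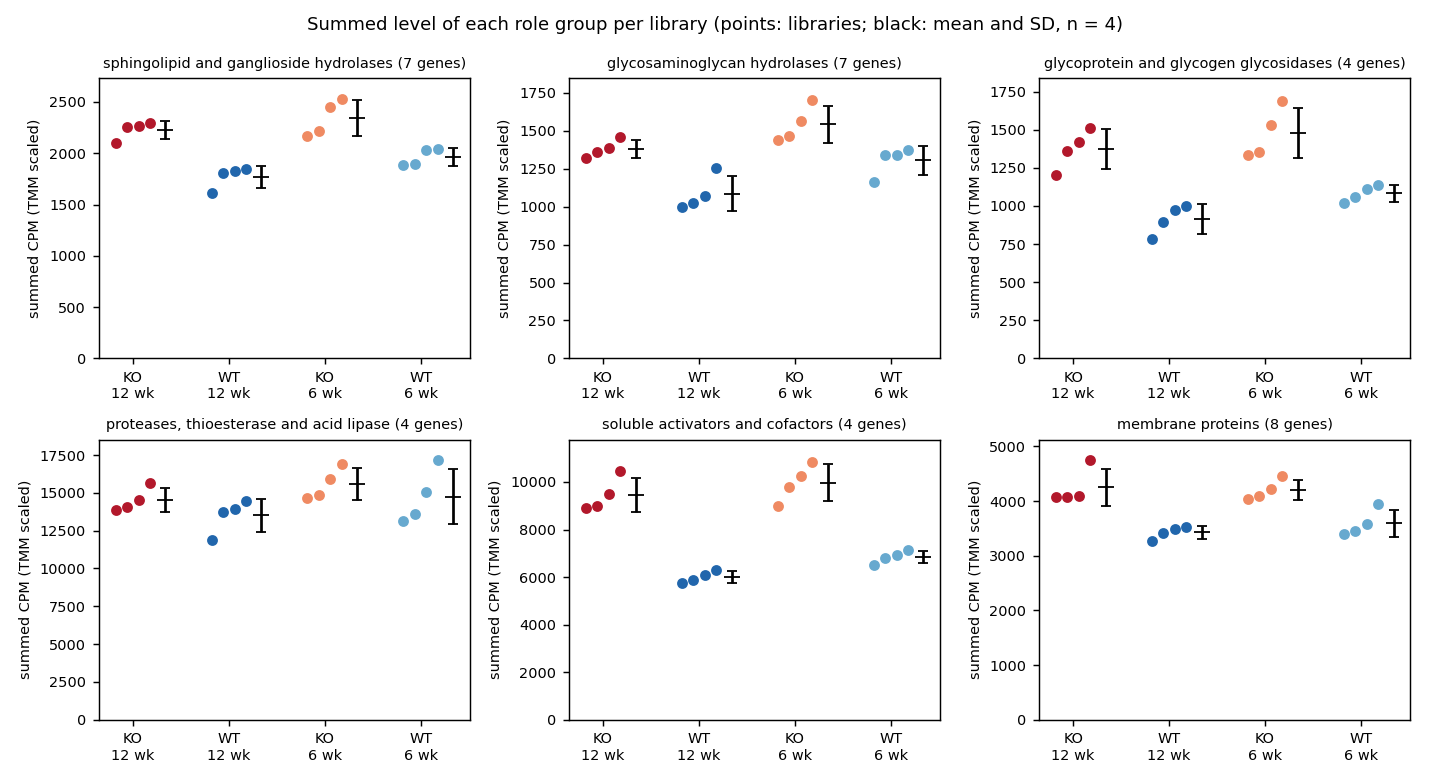
Summed CPM of the members of each role per library, with KO left of WT at 12 weeks and then at 6 weeks; black marks are the mean and SD (n = 4). The 4 soluble cofactors average 9467 CPM in KO and 5999 CPM in WT at 12 weeks, while the sum of the proteases, thioesterase and acid lipase, which is mostly Lgmn, overlaps between the genotypes.

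Summed over all 34 genes, the level was 33219 ± 1461 CPM in KO and 26702 ± 1142 CPM in WT at 12 weeks, and 35122 ± 2249 CPM in KO and 29538 ± 2361 CPM in WT at 6 weeks (SD, n = 4). Without Lgmn the sums were 20522 ± 683 CPM in KO and 14732 ± 432 CPM in WT at 12 weeks, and 21574 ± 1363 CPM in KO and 16518 ± 796 CPM in WT at 6 weeks. Levels between genes were compared as CPM per kilobase of GENCODE M21 exon. On that scale, averaged over the 16 libraries, Lgmn stood highest at 5514, followed by Psap at 1898, Cd68 at 1420, Grn at 427 and Hexa at 407, and Ids was lowest at 2.48.

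By the main edgeR test, fewer genes were called between the ages than between the genotypes. DESeq2 called 354 genes higher and 231 lower at 12 against 6 weeks in KO, and 255 higher and 255 lower in WT. Between the genotypes it called 979 higher and 577 lower at 12 weeks, and 404 higher and 177 lower at 6 weeks. In edgeR's test of 12 against 6 weeks, 0 of the 34 genes were called in either direction in KO or in WT, where over all genes tested 0.00585% were called higher and 0.0176% lower in KO, and 0% higher and 0.0117% lower in WT. At unadjusted p under 0.05, 1 gene was higher and 2 were lower at 12 weeks in KO, where 3.59% and 5.21% of all genes tested were. In WT 1 gene was higher and 9 were lower, where 3.09% and 4.35% of all genes tested were. Hexa averaged 584 ± 51.4 CPM in WT at 12 weeks and 777 ± 52.9 CPM in WT at 6 weeks, with a log2 change of -0.42 ± 0.09 (edgeR adjusted p = 0.209). Idua averaged 40.2 ± 14.8 CPM in WT at 12 weeks and 74.3 ± 3.13 CPM in WT at 6 weeks, with a log2 change of -0.98 ± 0.24 (edgeR adjusted p = 0.272). Naglu averaged 66.2 ± 22.0 CPM in WT at 12 weeks and 122 ± 17.4 CPM in WT at 6 weeks, with a log2 change of -0.86 ± 0.24 (edgeR adjusted p = 0.357). DESeq2 called these 3 genes lower at 12 weeks in WT, where it called 255 of all 28713 genes it tested lower. It called Tpp1 lower at 12 weeks in KO, where it called 231 of all genes lower. Tpp1 averaged 834 ± 23.5 CPM at 12 weeks and 1103 ± 88.6 CPM at 6 weeks in KO. Npc2 and Lamp1 ran the other way, with log2 changes of 12 against 6 weeks of 0.36 ± 0.12 for Npc2 in KO and 0.49 ± 0.16 for Lamp1 in WT, and neither was called.

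The genotype difference itself was tested between the ages. For the 34 genes the difference of the log2 changes, 12 minus 6 weeks, ran between -0.30 and 0.63 with a median of 0.03, and 0 genes were called or had an unadjusted p under 0.05 in edgeR, and DESeq2 called 0. Of all genes tested, 0.00585% were called higher in this comparison. For the 7 called members the difference lay above 0 in each case, from 0.11 ± 0.13 for Cd68 to 0.23 ± 0.12 for Hexa. The 3 genes called at 12 weeks and not at 6 weeks are therefore not shown to differ between the ages.

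**Figure D5:**
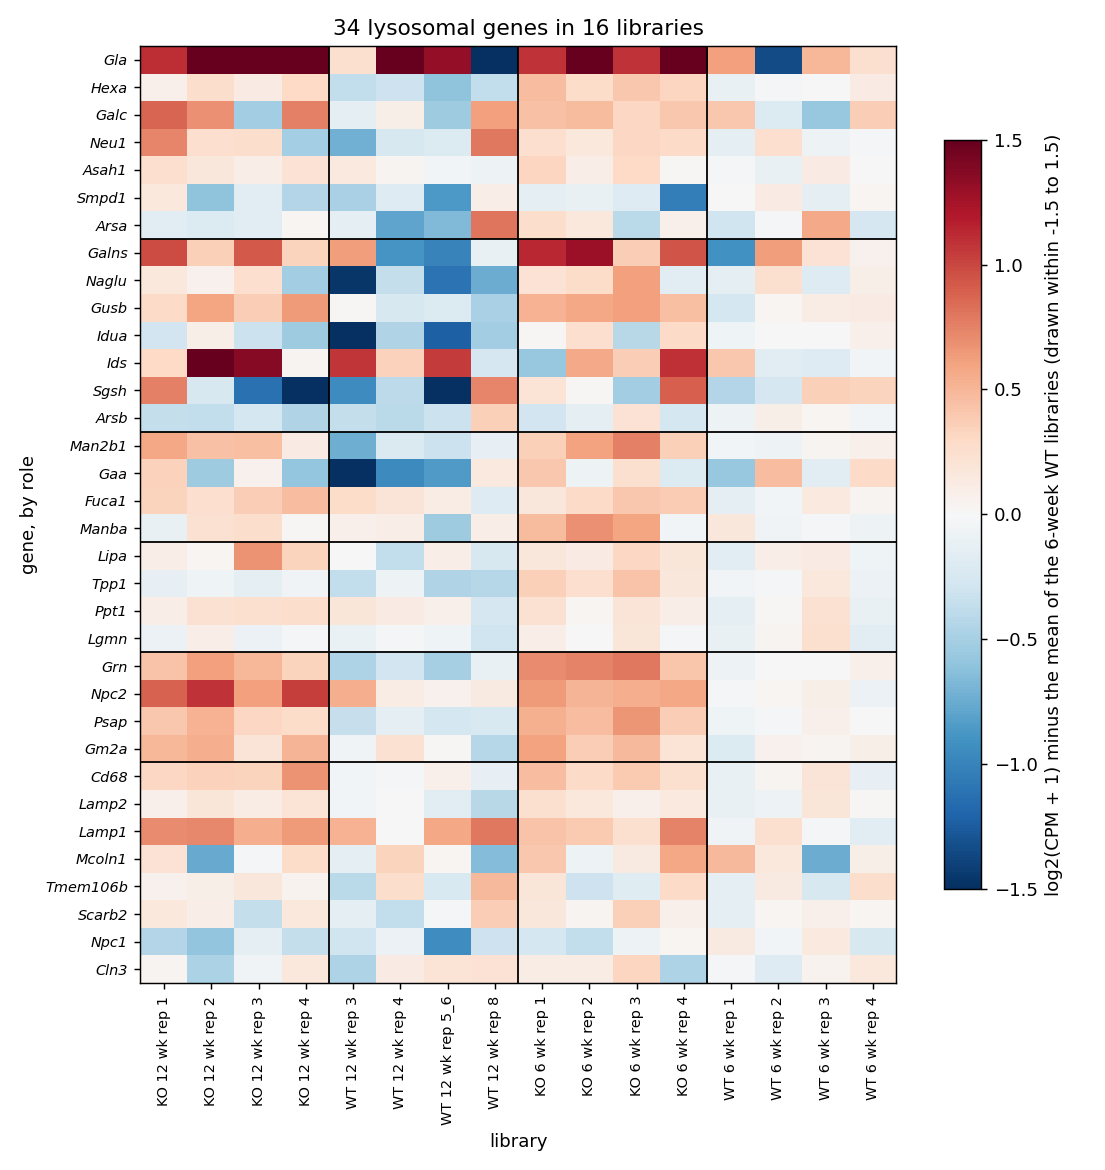
Level of the 34 lysosomal genes (rows, by role) in each of the 16 libraries (columns, KO before WT at 12 weeks and then at 6 weeks), as log2(CPM + 1) minus the mean of the 6-week WT libraries, with values beyond the colour scale drawn at its end. Red is higher and blue is lower; Psap, Grn, Npc2 and Gusb are red in all 8 KO libraries, and Naglu and Idua are blue in all 4 WT libraries at 12 weeks.

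Among other lysosomal genes, 5 of 33 further soluble enzymes were higher in KO at 12 weeks and 1 at 6 weeks, and 0 were lower, with a median log2 change of 0.28 at 12 weeks and 0.29 at 6 weeks. Pld3, a nuclease of the endolysosome, averaged 556 ± 63.3 CPM in KO and 286 ± 58.8 CPM in WT at 12 weeks (edgeR adjusted p = 0.000453), and was the gene called at both ages. Glb1, the beta-galactosidase read out in senescence staining, averaged 129 ± 9.09 CPM in KO and 74.9 ± 16.4 CPM in WT at 12 weeks (log2 change 0.79 ± 0.16, edgeR adjusted p = 0.0122), and 129.7 ± 9.90 CPM in KO and 85.9 ± 13.6 CPM in WT at 6 weeks (edgeR adjusted p = 0.14). Of 12 cathepsins tested, 8 were higher at 12 weeks and 5 at 6 weeks and 0 were lower, with a median log2 change of 0.59 at 12 weeks and 0.50 at 6 weeks, and with Ctsb at 7973 ± 923 CPM in KO and 3495 ± 199.6 CPM in WT at 12 weeks. Of 37 further membrane proteins, Cd63 and Mfsd1 were higher and Cd164 was lower at 12 weeks, and Cd63 alone was called at 6 weeks, with a median log2 change of 0.02 at 12 weeks and 0.04 at 6 weeks. Of 19 subunits of the proton pump that acidifies the lysosome, Atp6v1d was called higher at 12 weeks and 0 were called at 6 weeks, with a median log2 change of 0.17 at 12 weeks and 0.10 at 6 weeks. Of 25 genes that deliver enzymes to the lysosome, 0 were called at either age (median log2 change 0.14 at 12 weeks and 0.06 at 6 weeks), and the same held for 20 genes of lysosomal transcription and nutrient sensing (0.10 at 12 weeks and 0.04 at 6 weeks). Tfeb averaged 5.05 ± 1.82 CPM in KO and 12.5 ± 8.02 CPM in WT at 12 weeks (edgeR adjusted p = 0.211). Its relative Tfe3 averaged 154 ± 23.9 CPM in KO and 152 ± 33.9 CPM in WT at 12 weeks (edgeR adjusted p = 0.886), and Mitf averaged 35.3 ± 8.46 CPM in KO and 18.7 ± 5.11 CPM in WT at 12 weeks (edgeR adjusted p = 0.123).

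Markers of other cells were set beside these changes. The summed level of 12 genes of border-associated macrophages, which also carry many lysosomes, was 310.3–486 CPM in KO and 248–290.2 CPM in WT at 12 weeks, and 386–608 CPM in KO and 285–379 CPM in WT at 6 weeks, and none of the 12 was at 0 in a whole group. Mrc1 averaged 57.1 ± 16.4 CPM in KO and 13.5 ± 8.86 CPM in WT at 12 weeks, and Ms4a7 and Dab2 were called higher at that age. The median log2 change of the 12 genes was 2.14 at 12 weeks and 1.63 at 6 weeks. Stab1, the most abundant of the 12, was the only gene of the list with a lower mean in KO. Its mean was 142 ± 29.6 CPM in KO and 216 ± 40.2 CPM in WT at 12 weeks. It stood at 184 ± 32.9 CPM in KO and 229 ± 42.3 CPM in WT at 6 weeks. It was not called. Monocyte markers summed to at most 48.5 CPM in any library. At 12 weeks their sum was higher in KO without overlap, at 20.003–44.96 CPM in KO and 4.43–19.66 CPM in WT. The 6-week sums overlapped between the genotypes. None of the 4 monocyte genes tested was called (median log2 change 2.40 at 12 weeks and 1.38 at 6 weeks). Ly6c2 and Chil3 were at 0 in both KO groups and in WT at 12 weeks. The summed level of 6 erythroid genes was 13.2–112 CPM in KO and 2.38–34.2 CPM in WT at 12 weeks, and 2.45–55.1 CPM in KO and 9.71–50.3 CPM in WT at 6 weeks. Hba-a1, a haemoglobin gene, was the most abundant. None of the 5 tested was called (median log2 change 3.07 at 12 weeks and -0.23 at 6 weeks). Markers of neurons, astrocytes, oligodendrocytes and vessel cells overlapped between the genotypes in their sums at 12 weeks. At 6 weeks all of these sums but that of vessel cells overlapped. The vessel cell sum at 6 weeks was 12.2–46.9 CPM in KO and 53.9–81.7 CPM in WT. Flt1, a vessel cell gene, was called higher in KO at 12 weeks. The astrocyte sum was mostly Slc1a3, at 311 CPM in KO and 278 CPM in WT at 12 weeks. Gfap averaged 14.8 ± 11.8 CPM in KO and 0.943 ± 1.89 CPM in WT at 12 weeks, and 7.27 ± 4.29 CPM in KO and 0 CPM in WT at 6 weeks. None of the 8 astrocyte genes was called at either age (median log2 change 0.10 at 12 weeks and -0.05 at 6 weeks). The part of these cells in the lysosomal results was not tested.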

How the data were processed

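Per the labels, libraries of sorted microglia came from a low-input kit. Raw whole-number gene counts were deposited by the authors for 16 libraries. HTSeq 0.11.0, TopHat, cutadapt 2.10 and the build GRCm39 are listed in the submitters' processing notes, beside FastQC, SAMtools and Picard; the sources used here give neither annotation release nor strand setting. A series table of 36982 symbols was used only for a check. It matched these counts exactly for the symbols it shared with the count files that occur there once. Genes were tested with edgeR 4.0.16 under R 4.3.3 (TMM, filterByExpr with a minimum count of 10, robust quasi-likelihood, terms for group and sex, all 16 libraries, 2-sided, Benjamini-Hochberg over 17090 genes, threshold 0.05), and checked on simulated data. The SE is the absolute log2 change over the square root of F. Alternatives used DESeq2 1.42.0 and limma 3.58.1 among others. Members with a call in any comparison are given per library and the others by group mean or range. The members and gene lists were chosen with earlier results of these data known. Exon lengths and overlaps are from GENCODE M21 and promoters from RefSeq, both GRCm38.p6, and no coordinates were converted. Counting intervals are not given, and PCR reads without molecular identifiers are not independent molecules. Some genes are not reported here.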

Additional observations from a re-analysis of the deposited data

Results flagged for a closer look

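In 9 of 136 sets of 4 libraries (34 genes in 4 groups), a single library lay apart from the other 3 by more than Dixon's critical share of the group's range; chance flags about 1 in 20 such sets. All values are CPM on TMM-scaled library sizes. Among KO libraries at 12 weeks, Cd68 was 2475 CPM in library 4 with 1923–1973 CPM in the others, Arsa was 25.6 CPM in library 4 with 21.5–22.1 CPM in the others, Gm2a was 344 CPM in library 3 with 426–439 CPM in the others, and Scarb2 was 178 CPM in library 3 with 243–253 CPM in the others. Among WT libraries at 12 weeks, Npc2 was 1083 CPM in library 3 with 773–810.1 CPM in the others, Cln3 was 91.4 CPM in library 3 with 138–148 CPM in the others, Arsb was 720.0 CPM in library 8 with 422–447 CPM in the others, and Manba was 34.8 CPM in library 5_6 with 53.5–54.5 CPM in the others. Among KO libraries at 6 weeks, Smpd1 was 32.0 CPM in library 4 with 57.9–61.3 CPM in the others. Without KO library 4 at 12 weeks the Cd68 call held, with a log2 change of 0.37 (edgeR adjusted p = 0.029), and without WT library 3 at 12 weeks the Npc2 log2 change was 0.87 (edgeR adjusted p = 0.000229).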

How the results depend on the processing

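No alternative turned the direction of any of the 7 called genes at either age. At 12 weeks, the 7 members higher in KO became 11 with DESeq2 (adding Gm2a, Lamp2, Lipa and Naglu), 9 without a low-count filter, 8 without a sex term, 7 with RLE scaling or limma voom, 6 without WT libraries 3 and 8, and 5 when only the 12-week libraries were fitted (Npc2, adjusted p = 0.0613, and Cd68, adjusted p = 0.0781, were lost). At 6 weeks, the 4 became 7 with DESeq2 and with limma voom (adding Cd68, Hexa and Man2b1), 5 with 4 other settings and 4 with RLE scaling. Leaving out each library in turn gave 7 to 10 genes at 12 weeks and 2 to 3 at 6 weeks, where Psap and Grn passed in 8 of 8 fits. In the age comparisons, DESeq2 called 1 gene lower at 12 weeks in KO (Tpp1) and 3 in WT (Hexa, Idua and Naglu), and omitting the filter called 2 in WT (Idua and Naglu). Of all 28713 genes it tested, DESeq2 called 354 higher and 231 lower at 12 weeks in KO, and 255 higher and 255 lower in WT. Omitting the filter called 164 of 29343 genes lower in WT. The deviations of same-numbered KO and WT libraries had correlations between -0.0108 and 0.0623. Those of libraries with different numbers lay between -0.0613 and 0.0386. All of these values are small and 12 weeks holds only 2 same-numbered pairs. The check therefore cannot decide whether the numbers pair the samples. A replicate block, without the sex term, left 2 members at 6 weeks (Psap and Grn) and 0 at 12 weeks, where 9 had an unadjusted p under 0.05. Over all genes it left 55 called higher and 13 lower at 12 weeks, beside 347 and 163. At 12 weeks only the numbers 3 and 4 occurred in both genotypes, so the blocked estimate there rests on 2 KO and 2 WT libraries. The loss of calls at 12 weeks is therefore not a test of 4 against 4 libraries. The block was a number within an age, so it could not be fitted for the age comparisons. Between the genotypes, DESeq2 called 979 of 28713 genes higher and 577 lower at 12 weeks, and 404 higher and 177 lower at 6 weeks. The summed level of the 34 genes, leaving out a library, ran over 32532–33651 CPM in KO and 26228–27161 CPM in WT at 12 weeks, and 34231–35945 CPM in KO and 28456–30196 CPM in WT at 6 weeks. Genes under about 20 CPM, such as Gla, Ids and Sgsh, had standard errors too wide for changes of the size seen in the called members to be detected. Standard errors were also wide at higher levels. At 12 weeks they were 0.36 for Galns, 0.34 for Gaa, 0.29 for Neu1 and 0.26 for Mcoln1, with means over the 16 libraries between 25.7 and 97.1 CPM. Naglu, at 114 CPM, missed the threshold at 12 weeks with a log2 change of 0.88 ± 0.24. The lowest such mean of a called member was 593 CPM, for Gusb. A missing call at lower levels therefore does not show that a gene was unchanged.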
